A study of Homo sapiens with 9 samples.

Results

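The aryl hydrocarbon receptor genes described here are AHR, the receptor itself, ARNT, its DNA-binding partner, AHRR, a repressor that competes with it, and 3 of its transcriptional targets, CYP1A1, CYP1B1 and TIPARP. The members were chosen by name, with earlier results of these data known, and every probe set annotated to 1 of these genes alone was used. That gave 15 of the 54613 probe sets on the array and 6 of the 19775 genes that have a probe set of their own. ARNT had 7 probe sets, CYP1B1 had 4 and each of the other genes 1. They were measured in PANC-1, a line of human epithelial cells grown from a carcinoma of the pancreas. The groups were BRD7552, a small molecule, at 5 uM for 72 h (3 arrays), the same dose for 6 h (3 arrays), and the solvent DMSO (3 arrays, whose labels state no time, so a change with time in culture cannot be told apart from a change with exposure). The same 3 DMSO arrays served both comparisons with solvent. Per the series text, the dose was the smallest that gave full induction of the homeobox gene PDX1. The comparisons ask which members differed from solvent after long and after short exposure, whether the CYP1B1 probe sets moved alike, and whether the targets moved in 1 direction.

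AHR is a ligand-activated transcription factor of the bHLH-PAS family that waits in the cytoplasm with HSP90 and co-chaperones. When it binds a ligand, such as a dioxin, a polycyclic aromatic hydrocarbon or a tryptophan metabolite, it enters the nucleus and pairs with ARNT. The pair binds DNA at a core motif with the letters GCGTG and raises transcription of its targets. CYP1A1 and CYP1B1 are cytochrome P450 enzymes that oxidise polycyclic aromatic hydrocarbons, and CYP1B1 also hydroxylates oestradiol. AHRR and TIPARP, also called PARP7, are target genes that act back on the receptor as repressors, TIPARP as a mono-ADP-ribosyltransferase.

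Promoter sequences of 5 of the 6 members, all but CYP1B1, were taken from RefSeq on GRCh38.p14, as windows of 300 bases from 250 before to 50 after each annotated start. The letters GCGTG, searched on both strands, were present in 5 of the members' 8 windows and in 4 of the 5 genes. They were present in 36.5% of 35116 such windows over the genome, so a match is common. The longer form TNGCGTG, which contains the short one, was in 5.51% of all windows and among the members only in the first AHRR window. ARNT had no match in its window. The first windows of the target genes AHRR, CYP1A1 and TIPARP are printed because these are the genes whose responses are compared below. Capitals mark GCGTG, or CACGC where the match lies on the opposite strand. They lie on the plus strand at chr5:321464-321763 for AHRR and chr3:156674340-156674639 for TIPARP, and on the minus strand at chr15:74725479-74725778 for CYP1A1.
AHRR promoter: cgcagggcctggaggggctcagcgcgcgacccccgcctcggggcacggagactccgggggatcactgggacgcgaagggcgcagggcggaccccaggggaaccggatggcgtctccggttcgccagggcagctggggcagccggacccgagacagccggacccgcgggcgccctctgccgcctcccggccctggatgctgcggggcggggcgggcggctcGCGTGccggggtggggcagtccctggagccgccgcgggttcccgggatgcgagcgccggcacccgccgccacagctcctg
CYP1A1 promoter: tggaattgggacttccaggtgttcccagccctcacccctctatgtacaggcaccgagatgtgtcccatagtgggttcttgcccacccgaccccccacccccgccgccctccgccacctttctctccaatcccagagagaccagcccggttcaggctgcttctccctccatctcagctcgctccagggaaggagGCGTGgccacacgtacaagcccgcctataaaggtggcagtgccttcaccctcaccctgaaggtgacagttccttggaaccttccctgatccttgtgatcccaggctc
TIPARP promoter: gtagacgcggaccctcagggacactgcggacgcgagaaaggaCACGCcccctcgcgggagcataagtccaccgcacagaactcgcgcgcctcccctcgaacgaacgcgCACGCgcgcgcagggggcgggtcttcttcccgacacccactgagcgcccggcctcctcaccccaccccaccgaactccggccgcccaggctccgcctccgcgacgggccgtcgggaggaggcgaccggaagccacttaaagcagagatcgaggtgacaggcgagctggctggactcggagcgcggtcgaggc
The AHRR window holds the core once at base 221 and the CYP1A1 window once at base 194, while the TIPARP window holds it at bases 43 and 109 on the opposite strand, all counted from the window's 5′ end. A match is a description of letters and no evidence of binding.

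The arrays had a median probe set signal of 16.2 to 18.8 on a linear intensity scale, and 97.5 and 99.7 as upper quartile on 72 h replicates 2 and 3, against 112 to 119 on the other arrays. The ratio of 3′ to 5′ signal for ACTB, a sign of RNA or labelling quality, was 2.07 to 2.21 at 72 h, 1.74 to 2.05 at 6 h and 1.91 to 2.01 in DMSO. Markers of simple epithelium and duct were above the median probe set for 7 of 7 genes, while 0 of 5 islet and 0 of 4 measured leukocyte markers were. Also above it were 2 of 6 stromal fibroblast markers (COL1A1 at 566 and DCN at 29.9), 2 of 4 hepatocyte, 1 of 5 endothelial and 1 of 4 measured acinar markers, none of them called in any comparison in limma. The summed epithelial markers ranged over 27812 to 29654 at 72 h, 34883 to 35036 at 6 h and 34531 to 35426 in DMSO. Of these 7 genes, 1 was called higher and 3 lower in limma at 72 h against DMSO. The counts were the same at 72 h against 6 h, and 0 were called at 6 h. The part of these differences in the results below was not tested, except where a value without the 72 h arrays 2 and 3 is given. Nothing in the labels says that replicates were grown separately, so each p reflects the spread among these arrays alone, which may be technical, and their number limits the precision. Probe sets were tested together with limma, and a change was called where the p adjusted by Benjamini and Hochberg over all of them lay below 0.05.

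After 72 h of BRD7552, CYP1B1 rose and TIPARP fell against DMSO, whereas no probe set of AHR, ARNT, AHRR or CYP1A1 passed the test. Of the 15 member probe sets, 3 were called higher, all of CYP1B1, 1 was called lower, that of TIPARP, and 11 were not called. The share called was 26.7%, beside 7.45% of all probe sets (2.06% higher and 5.38% lower). Because the members were chosen with earlier results known, and the 3 higher calls are of 1 gene, the shares here and below are a description and no test. These shares are not of like signal, since most member probe sets were brighter than the median one. With only probe sets at or above the median tested, 4 of 12 members were called, beside 5411 of 27303. With 1 such probe set per gene it was 3 of 6, beside 3378 of 12678. With 72 h arrays 2 and 3 left out, a setting chosen after the data had been seen, 4 were called higher and 0 lower, since CYP1A1 then passed and TIPARP did not. After 6 h, 0 of the 15 passed in limma, beside 0.0732% of all probe sets (0.0677% higher and 0.00549% lower), and 1 had an unadjusted p below 0.05. Between 72 h and 6 h, 3 were higher, all of CYP1B1, and 12 were not called. That is a share of 20% beside 6.46% of all probe sets (1.61% higher and 4.85% lower). With only probe sets at or above the median tested, it was 3 of 12 members beside 4766 of 27303. The median log2 change over the 15 was 0.040 at 72 h and 0.014 at 6 h, beside -0.03 and 0.0016 over all probe sets. These signals are means over a culture, so fewer cells with a transcript and less of it per cell cannot be told apart.

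**Figure D1:**
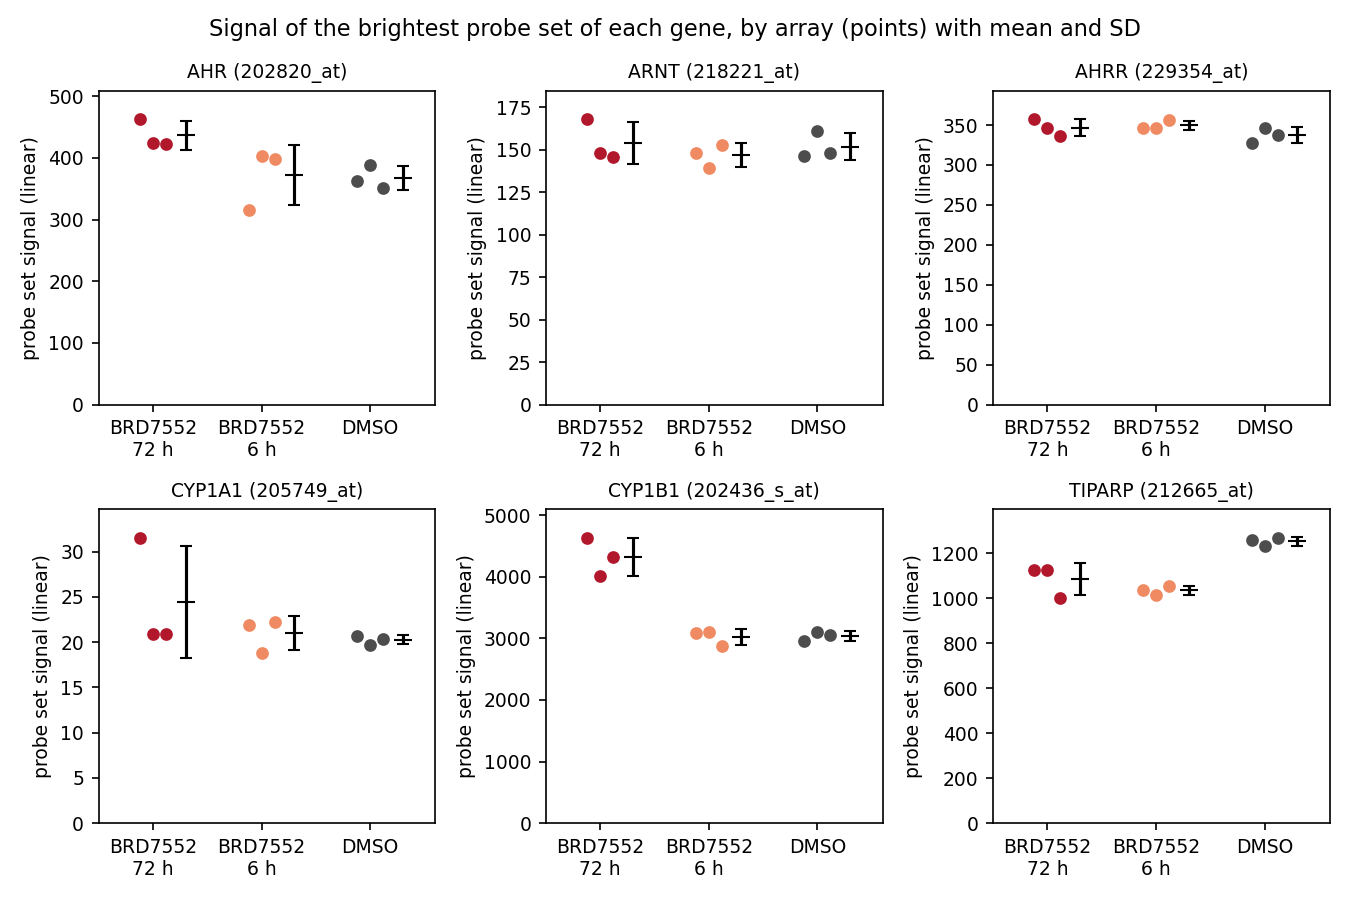
Deposited signal (linear intensity, y axis) of the brightest probe set of each gene on every array, with 72 h BRD7552 left, 6 h next and DMSO right; points are arrays, and the bar beside them shows the group mean and SD. CYP1B1 stands higher on every 72 h array than on any other array, and TIPARP stands lower on every BRD7552 array than on any DMSO array.

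The receptor AHR had signals of 463, 425 and 422 at 72 h, against 316, 403 and 399 at 6 h and 362, 388 and 351 in DMSO (202820_at). All 3 arrays at 72 h lay above all 6 others, while 6 h and DMSO overlapped. The mean was 437 ± 23 at 72 h and 367 ± 19.3 in DMSO (SD, n = 3 each), a log2 change of 0.25 ± 0.092 (SE), and limma's adjusted p of 0.143 did not pass. The 95% interval of the ratio ran from 1.04 to 1.36. The adjusted p passed after quantile normalization (log2 0.30, adjusted p = 0.0272), after cyclic loess (0.31, adjusted p = 0.0243) and with 1 probe set per gene (adjusted p = 0.0464), so the call depends on the scaling and on which probe sets are tested. At 6 h the log2 change was 0.01 ± 0.092, with a ratio between 0.879 and 1.16. From 6 h to 72 h it differed by 0.24, again short of the threshold (adjusted p = 0.18), though it passed after quantile normalization (0.29, adjusted p = 0.0383) and after cyclic loess (0.30, adjusted p = 0.0328).

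ARNT, the partner that carries AHR and also the HIF factors to DNA, gave no called change on any of its 7 probe sets at either time. Its brightest probe set read 168, 148 and 146 at 72 h, 148, 139 and 153 at 6 h, and 146, 161 and 148 in DMSO (218221_at). The groups overlapped, with a ratio of 1.01 at 72 h (95% interval 0.885 to 1.16) and 0.968 at 6 h (0.846 to 1.11). Across the 7 probe sets the log2 change ran from -0.22 to 0.05 at 72 h and from -0.13 to 0.23 at 6 h. The lower end at 72 h belonged to 218222_x_at, whose suffix marks probes that may cross-hybridise (45.4 ± 7.28 at 72 h, 55.8 ± 1.35 at 6 h and 52.8 ± 5.89 in DMSO). The upper end at 6 h belonged to 210828_s_at, with 14.2 ± 1.11 at 72 h, 19.3 ± 2.9 at 6 h and 16.4 ± 2.18 in DMSO. Its signal lay near the median probe set of 17.8, and its log2 difference of -0.44 between 72 h and 6 h did not pass (limma adjusted p = 0.126). 3 of the 7 ARNT probe sets lay below that median.

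AHRR, the repressor that is itself a receptor target, had nearly level signals, with 358, 347 and 336 at 72 h, 347, 347 and 356 at 6 h, and 327, 347 and 338 in DMSO (229354_at). The groups overlapped throughout. The ratio to DMSO was 1.03 at 72 h (95% interval 0.936 to 1.13) and 1.04 at 6 h (0.945 to 1.14), and both intervals include 1. The value 346.627 occurred identically on 4 of the 9 arrays, and such ties can make the spread within a group too small.

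CYP1A1, usually the most inducible target of the receptor, had signals of 31.5, 20.9 and 20.9 at 72 h, against 21.9, 18.8 and 22.2 at 6 h and 20.7, 19.7 and 20.4 in DMSO (205749_at). The 72 h arrays all lay above the DMSO arrays, but the gap came mostly from replicate 1, and replicates 2 and 3 held an identical value. The log2 change was 0.24 ± 0.17 at 72 h (ratio 1.18, 95% interval 0.921 to 1.52, adjusted p = 0.507 in limma) and 0.05 at 6 h (ratio 1.03, 0.804 to 1.33). Without replicate 1 the 72 h value was 0.05, and with replicate 1 as the single 72 h array it was 0.64 (limma adjusted p = 0.0397, with the lone array assumed to vary like the other groups). The probe set averaged 21.7 over the arrays, close to the median probe set of 17.8, and a change smaller than its interval was not detectable at this signal.

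CYP1B1 rose at 72 h on 3 of its 4 probe sets and on none at 6 h. The brightest, 202436_s_at, read 4634, 4009 and 4313 at 72 h, against 3081, 3102 and 2869 at 6 h and 2951, 3102 and 3058 in DMSO. Probe set 202437_s_at read 3590, 3965 and 4098 at 72 h, 2231, 2518 and 2787 at 6 h, and 2448, 2784 and 2572 in DMSO. For 202435_s_at the signals were 3377, 3359 and 3820 at 72 h, 2229, 2553 and 2347 at 6 h, and 2248, 2418 and 2172 in DMSO. On each of these 3 probe sets all 72 h arrays lay above all 6 others, and the 6 h arrays overlapped the DMSO arrays. Non-overlap of 72 h and DMSO arrays occurred for 6 of the 15 member probe sets, beside 19.8% of all probe sets.

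The changes of these 3 CYP1B1 probe sets against DMSO were alike in size. At 72 h 202436_s_at rose by 0.51 ± 0.050 on the log2 scale (SE), a ratio of 1.42 with a 95% interval of 1.32 to 1.53 and limma's adjusted p of 4.44e-05. Probe set 202437_s_at rose by 0.58 ± 0.074 (ratio 1.49, 1.34 to 1.67, adjusted p = 0.000344). Probe set 202435_s_at rose by 0.62 ± 0.061 (ratio 1.54, 1.41 to 1.69, adjusted p = 4.22e-05). The 3 intervals overlap, and differences between the probe sets were not tested. By size of change they stood at places 315, 227 and 180 among the 1127 probe sets called higher at 72 h. At 6 h their log2 changes were -0.01, -0.05 and 0.06, with ratios between 0.862 and 1.14 over the 3 intervals. Between 72 h and 6 h, the test of the difference itself passed on all 3, with log2 differences of 0.52, 0.63 and 0.57 and adjusted p of 5.52e-05, 0.000253 and 0.000128. With 72 h arrays 2 and 3 left out, the changes against DMSO were 0.61, 0.47 and 0.57 and still passed.

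The fourth CYP1B1 probe set, 202434_s_at, gave no called change and had the opposite sign. It read 24.2, 15.6 and 24.2 at 72 h, against 24.4, 22.6 and 26.7 at 6 h and 21.8, 29.3 and 25.9 in DMSO. The groups overlapped, and its signals were close to the median probe set of 17.8. The log2 change at 72 h was -0.28 ± 0.18 (ratio 0.822, 95% interval 0.624 to 1.08, adjusted p = 0.477 in limma), and at 6 h it was -0.05. Its interval at 72 h ended below the start of the intervals of the other 3. However, it averaged 23.6 over the arrays, against 3405, 2932 and 2667 for them, and the 15.6 of replicate 2 lowered its 72 h mean. Whether it could show a rise at this signal was not tested. The probe sets carry the same gene annotation, and which part of the transcript each one reads was not examined.

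**Figure D2:**
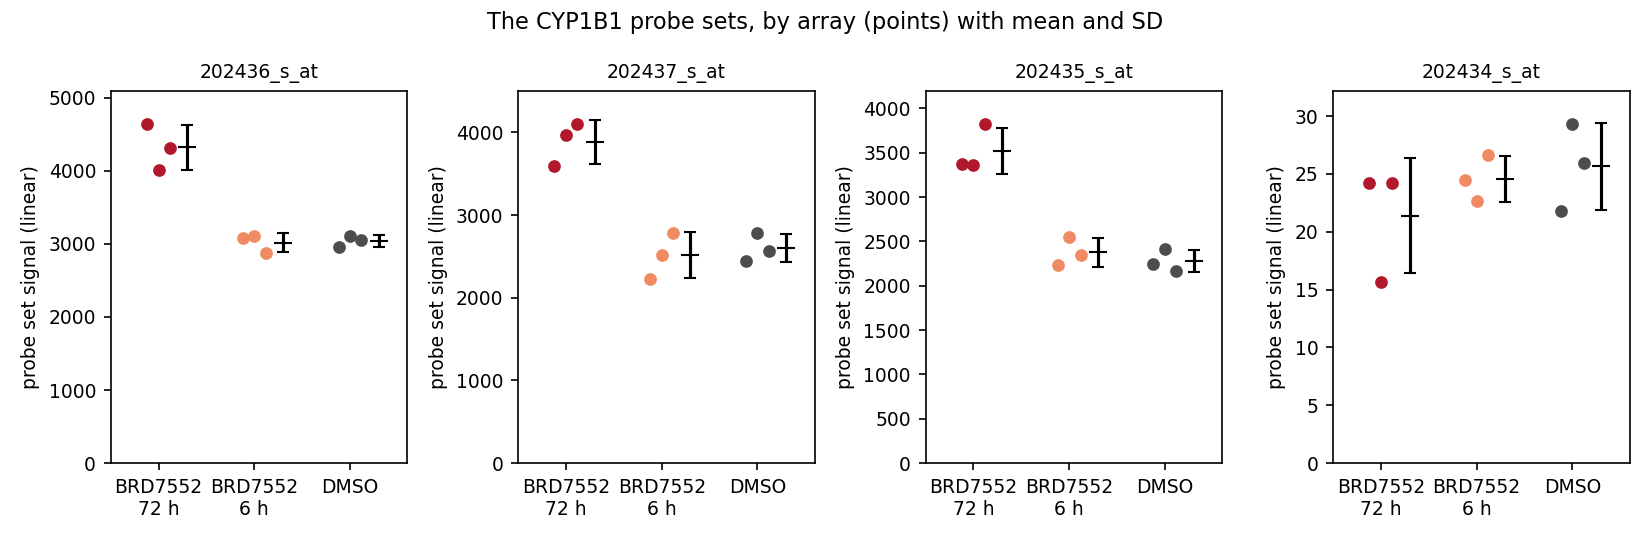
Signal of the 4 CYP1B1 probe sets (linear intensity, y axis, own scale per panel) on each array, with 72 h BRD7552 left, 6 h next and DMSO right; bars show the group mean and SD. In 3 panels the 72 h arrays stand clear of the rest, and in the panel of 202434_s_at, with signals from 15.6 to 29.3, the groups overlap.

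TIPARP stood lower on every BRD7552 array than on any DMSO array. Its signals were 1129, 1126 and 1003 at 72 h, 1037, 1014 and 1056 at 6 h, and 1258, 1232 and 1271 in DMSO (212665_at). At 72 h it fell by 0.21 ± 0.053 on the log2 scale, with a mean of 1086 ± 72 against 1253 ± 19.7 in DMSO (SD, n = 3 each), a ratio of 0.865 (95% interval 0.799 to 0.936) and limma's adjusted p of 0.0286. By size this was place 2757 of the 2940 probe sets called lower at 72 h. At 6 h the mean was 1036 ± 21.1, the log2 change -0.27 ± 0.053 and the ratio 0.826 (0.764 to 0.895). That value had an unadjusted p of 0.000177 but did not pass after adjustment (adjusted p = 0.17). TIPARP was the single member whose 6 h and DMSO arrays did not overlap, a pattern seen in 8.35% of all probe sets. From 6 h to 72 h the log2 difference was 0.07 (adjusted p = 0.586).

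Whether TIPARP passed depended on the processing at both times. At 72 h it passed under 9 of 18 alternatives, with log2 changes from -0.24 to -0.15, and failed among others when the arrays were centred on their medians (-0.17, adjusted p = 0.393), when 72 h arrays 2 and 3 were left out (-0.15, adjusted p = 0.169) or when any 1 DMSO array or 72 h replicate 3 was left out (limma adjusted p from 0.0694 to 0.126). At 6 h it passed in limma under 3 of 17 alternatives. These were 1 probe set per gene (adjusted p = 0.022), quantile normalization (adjusted p = 0.045) and array weights (adjusted p = 0.00597). It did not pass under the other 14, arrays centred on their medians among them (-0.27). Over all 17 the changes ran from -0.29 to -0.26.

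**Figure D3:**
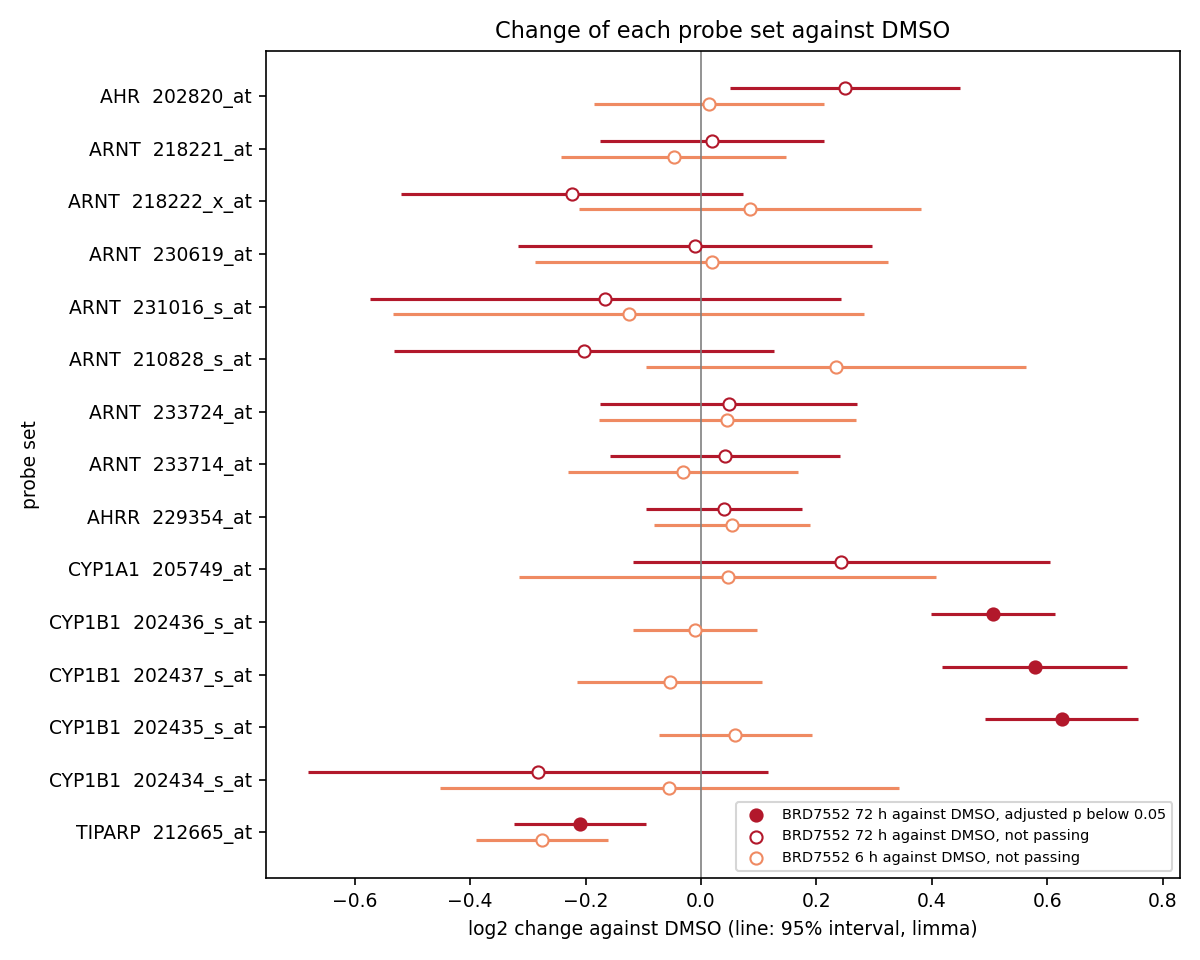
Log2 change against DMSO of all 15 member probe sets (x axis) at 72 h and at 6 h, with 95% intervals from limma; filled points passed at an adjusted p below 0.05. The 3 bright CYP1B1 probe sets lie at 0.51 to 0.62 at 72 h, TIPARP lies below 0 at both times, the AHR interval at 72 h starts at 0.05, and the remaining intervals include 0.

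The gap between CYP1B1 and TIPARP on the same array was wider on every BRD7552 array than on any DMSO array. The log2 signal of CYP1B1 (202436_s_at) minus that of TIPARP was 2.04, 1.83 and 2.10 at 72 h, against 1.57, 1.61 and 1.44 at 6 h and 1.23, 1.33 and 1.27 in DMSO. The offset between both probe sets has no meaning as a level, but its change between groups is untouched by a factor that scales a whole array. No group overlapped another. The group means differed by 0.71 between 72 h and DMSO, by 0.26 between 6 h and DMSO and by 0.45 between 72 h and 6 h. Each two-sided exact permutation test gave p = 0.1, also after adjustment over the 3 comparisons, which is the smallest p that 3 arrays against 3 allow, so the test could not pass. The pair was chosen with earlier results of these data known, and the gap restates the changes of both genes given above. At 6 h nearly all of the difference lay in TIPARP (-0.27) and little in CYP1B1 (-0.01), while at 72 h the larger share lay in CYP1B1 (0.51 against -0.21 for TIPARP). With the dim CYP1B1 probe set 202434_s_at in place of the brightest, the 72 h difference was -0.073.

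**Figure D4:**
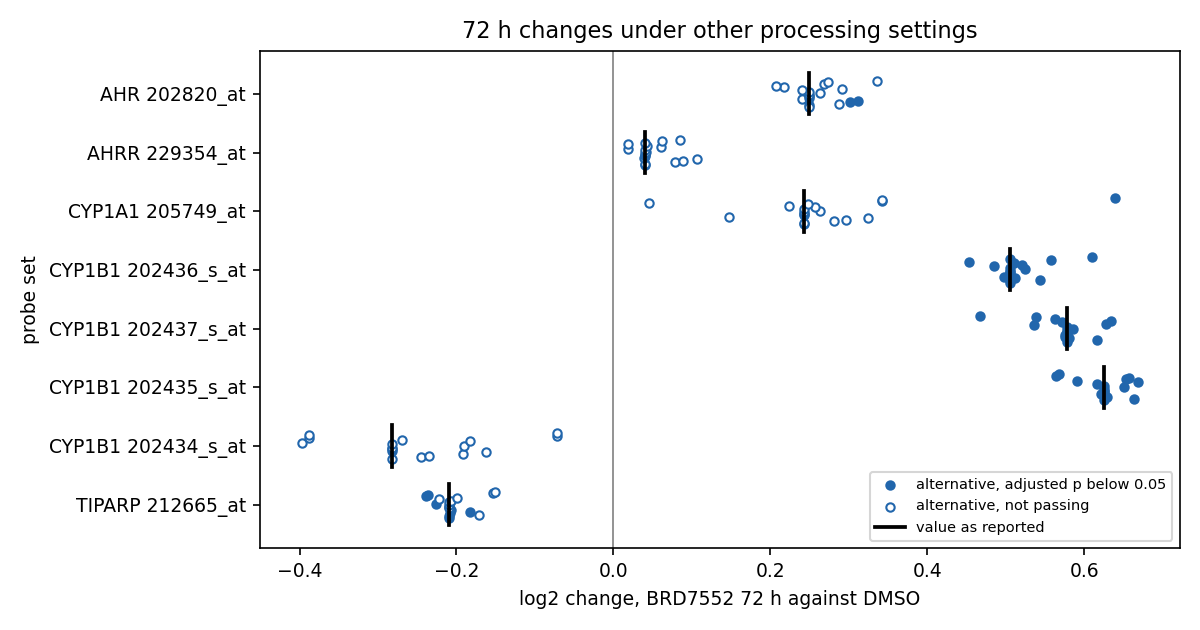
Log2 change at 72 h against DMSO (x axis) of 8 member probe sets, those of ARNT left out, under every processing alternative (points), with the value as reported as a vertical line; filled points passed at an adjusted p below 0.05. CYP1B1 202436_s_at passed under all 18 alternatives, TIPARP under 9 and AHR under 3 of 18.

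Over the 9 arrays, the genes whose log2 signal ran most like each member's were found among 12459 genes above the median probe set, as a description in which the points share their 3 groups. For CYP1B1 they were RNF10, ARHGAP17 and ARV1 (Pearson r = 0.984, 0.983 and 0.982). For TIPARP they were ENC1, POLR2D and VPS54 (r = 0.932, 0.905 and 0.903), and ENC1 had a log2 change of -0.38 after 72 h and of -0.35 after 6 h. AHR ran most like KCTD18, MBNL2 and IGF1R (r = 0.987, 0.983 and 0.979). The likest genes were ZBTB1, TMEM60 and ZNF570 for ARNT (r = 0.943, 0.938 and 0.915) and ZNF776, FAM114A2 and DAAM1 for AHRR (r = 0.937, 0.932 and 0.923). For CYP1A1 they were MED16, PRDM10 and RTN4IP1 (r = 0.982, 0.971 and 0.969). CYP1A1 read 31.5 on 72 h replicate 1 and 18.8 to 22.2 on the others, so its r mostly reflects that array. Being the highest of 12459 over 9 arrays, all these r can be high without a link between the genes.

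Around the receptor, 8 further lists of its helpers, relatives, targets and kynurenine pathway enzymes held 87 measured genes, each represented by its brightest probe set. At 72 h 9 were higher, 9 lower and 69 not called, a share of 20.7% beside 11.8% of all 19775 genes so represented. With only genes at or above the median probe set tested, 3378 of 12678 were called. The list genes were not compared with genes of like signal, so whether calls were in excess among them was not tested. The lists were also chosen with earlier results of these data known. Without 72 h arrays 2 and 3 the count was 8 higher and 4 lower. At 6 h 1 was higher and none lower in limma, 1.15% beside 0.142%. Between 72 h and 6 h 4 were higher and 9 lower, 14.9% beside 10.1%.

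Over all genes so represented, 3.67% were called higher and 8.11% lower at 72 h, with a median log2 change of -0.03. Of 5 chaperones and other proteins that bind the receptor, 1 fell at 72 h and none rose, with a median log2 change of -0.10. It was HSP90AB1, the constitutive cytosolic HSP90 chaperone, at 8205 against 9971 in DMSO, a fall by 0.28 ± 0.028 (SE, limma adjusted p = 5.1e-05). Of 10 other bHLH-PAS proteins 1 rose, the circadian factor CLOCK, by 0.34 ± 0.071, with a list median of 0.09, so that 1 of 10 stood near the 11.8% called over all genes. Of 8 coactivators and corepressors 1 rose, the nuclear receptor coactivator NCOA7, by 0.30 ± 0.054, with a list median of 0.04, again a share near that of all genes. Neither other NCOA7 probe set was called. CLOCK passed under 14 of 18 alternatives, and with arrays centred on their medians 0 of the 10 bHLH-PAS genes were called in limma.

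The list of drug-metabolizing genes also holds NFE2L2, the oxidative stress factor NRF2. It had 1 of 9 members higher at 72 h and none lower, with a median log2 change of 0.11. Over all genes 11.8% were called in either direction, 3.67% higher and 8.11% lower. Under quantile normalization or loess 2 were higher, and 3 without 72 h arrays 2 and 3. The riser was NQO1, a quinone reductase, at 1907 against 1526 in DMSO, a rise by 0.32 ± 0.043 (ratio 1.25, limma adjusted p = 0.000489). All 3 NQO1 probe sets passed at 72 h. CYP1A2, the liver counterpart of CYP1A1, had a log2 change of 0.21 ± 0.14 at 72 h and did not pass, with a mean signal of 24.8 over the arrays. ABCG2, a drug efflux pump, had 0.19 ± 0.058 and did not pass either.

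Of 16 other genes reported as receptor targets, 3 rose and 2 fell at 72 h, beside 3.67% higher and 8.11% lower over all genes, with a median of 0.12. Without 72 h arrays 2 and 3, 1 was higher and 1 lower. After centring each array on its median 2 were higher and 1 lower. HES1, a Notch-responsive repressor, fell by 1.25 ± 0.087 on the log2 scale, with 238 at 72 h against 563 in DMSO. EREG, an epidermal growth factor family ligand, fell by 0.38 ± 0.088. CCNG2, an atypical cyclin, rose by 0.74 ± 0.12 to 110 at 72 h, against 65.7 in DMSO, while none of its other 4 probe sets was called; of the other 2 for HES1, 1 was called, also lower. The glycoprotein hormone gene STC2 rose by 0.32 ± 0.072, and the amino acid transporter gene SLC7A5, named in addition after its value was seen, by 0.26 ± 0.054. The other EREG probe set was not called. EREG passed under 11 of 18 alternatives, STC2 and SLC7A5 under 14.

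Enzymes of the pathway from tryptophan through kynurenines, a source of receptor ligands, did not move in 1 direction at 72 h. The genes called all act on kynurenine once it is made. Of 11 measured, 1 rose and 2 fell, beside 3.67% higher and 8.11% lower over all genes, with a median of -0.10. Without 72 h arrays 2 and 3, 1 was higher and 0 lower, with a median of -0.0016, so neither fall was called without those arrays. KYAT3, a kynurenine aminotransferase, rose by 0.56 ± 0.072 to 857, against 585 in DMSO. AADAT, another kynurenine aminotransferase, fell by 0.81 ± 0.15 to 38, against 66.4 in DMSO, and KMO, which hydroxylates kynurenine, fell by 0.66 ± 0.17. IDO1, which starts the pathway, had a log2 change of 0.07 ± 0.14 and was not called. IDO2, TDO2 and AFMID, which also act before kynurenine is made, were not called either. Their mean signals were 10.6, 6.8 and 19.2, so a change in these steps may have been missed. KMO passed under 9 of 18 alternatives, neither of its other 2 probe sets was called, and the suffix _x_at of the one used marks possible cross-hybridisation. AADAT passed under 17 of 18, its adjusted p being 0.137 in limma without 72 h arrays 2 and 3.

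Of 16 other members of the poly-ADP-ribose polymerase family, to which TIPARP belongs, 2 fell at 72 h and none rose, a share near the 11.8% called and 8.11% lower over all genes, with a median of -0.09. ZC3HAV1, the zinc finger antiviral protein, fell by 0.41 ± 0.056, and PARP6, a mono-ADP-ribosyltransferase, by 0.36 ± 0.087. PARP6 passed under 9 of 18 alternatives, on a probe set with the same suffix. With 72 h arrays 2 and 3 left out 1 was lower and the list's median was 0.026. After quantile normalization or loess 1 was lower. PARP1, the best known enzyme of the family, had a log2 change of -0.04 ± 0.047.

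Hypoxia genes, which need ARNT as partner of the HIF factors, had 2 of 12 members higher and 2 lower at 72 h, beside 3.67% higher and 8.11% lower over all genes, with a median of -0.10. VEGFA, a vascular growth factor, rose by 0.59 ± 0.061 to 768, against 512 in DMSO, and BNIP3, a mitophagy receptor, by 0.17 ± 0.043. PDK1, a kinase that blocks pyruvate dehydrogenase, fell by 0.64 ± 0.13, and LDHA, a lactate dehydrogenase subunit, by 0.16 ± 0.023. VEGFA was also the single list gene called at 6 h, with a rise by 0.41 (limma adjusted p = 0.0218), though under 8 of 17 alternatives only. None of the other 3 VEGFA and 2 PDK1 probe sets was called at 72 h, and the other BNIP3 probe set had a log2 change of 0.06 and was not called. BNIP3 passed under 10 of 18 alternatives, LDHA under 16 and PDK1 under 17. With arrays centred on their medians 1 gene of the list was higher and 1 lower, as was the case without 72 h arrays 2 and 3, where the list's median was 0.017.

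**Figure D5:**
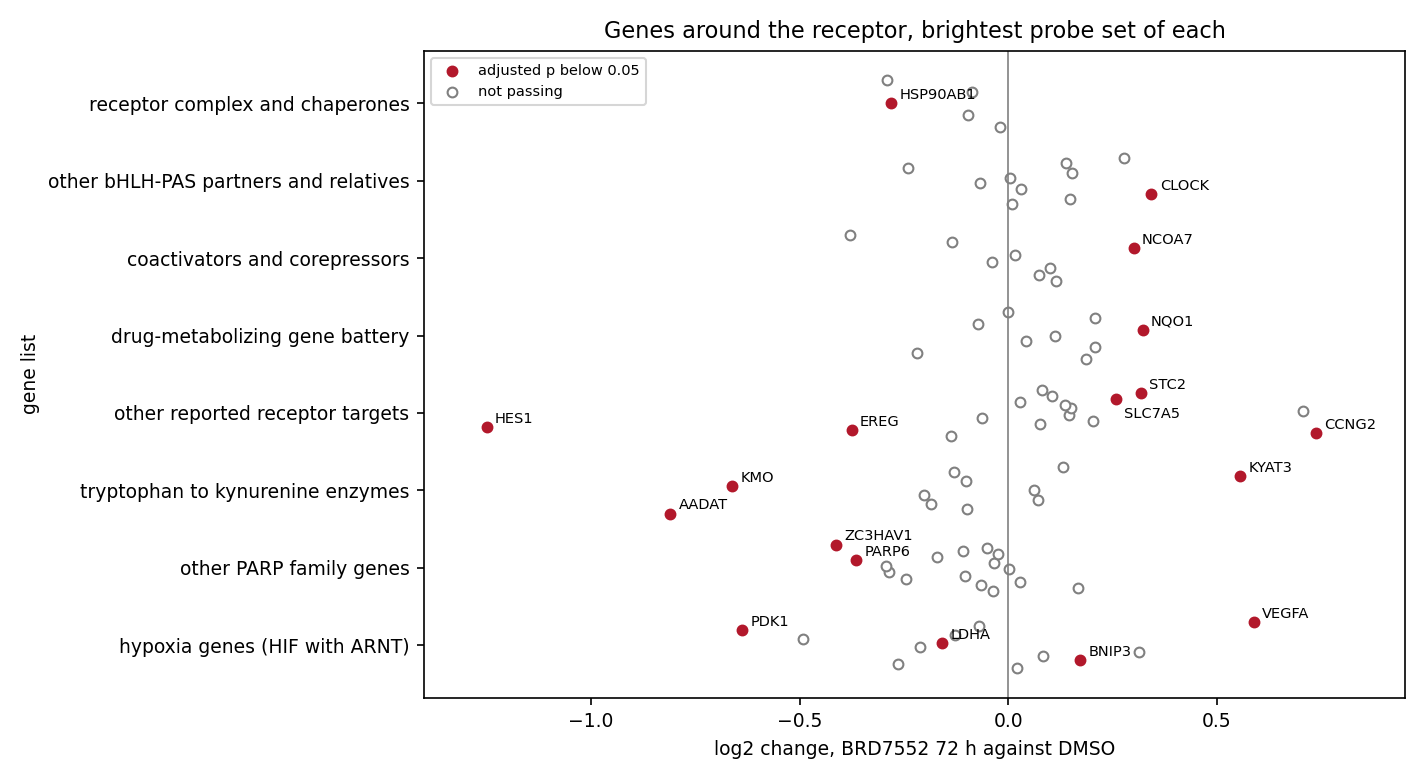
Log2 change at 72 h against DMSO (x axis) of the 87 list genes by list, 1 point per gene, with filled, named points for genes called at an adjusted p below 0.05. Called genes lie on both sides of 0 in the lists of reported targets, kynurenine enzymes and hypoxia genes.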

How the data were processed

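Biotin-labelled cRNA of 9 PANC-1 samples was read on Affymetrix arrays, with 3 arrays in each group. The deposited values are linear intensity per probe set, from 4.54 to 25052. MAS5 is named in the submitters' processing notes; its version and scaling are not given in the sources used. In 59.2% of probe sets some arrays held exactly the same value, which can make spreads too small; arrays shared at most 5.98% of values pairwise. The members and lists were chosen with earlier results of these data known.

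Probe sets were named through the platform annotation (41091 probe sets with 1 symbol, 1801 with several, 11777 with none; 41043 matched a RefSeq gene). Without 62 control probe sets, log2 intensity of all 54613 was fitted in limma 3.58.1 (R 4.3.3; lmFit, eBayes with trend, 3 groups, 6 residual degrees of freedom), with no filter, offset or further normalization. The fit was tested on simulated data with normal noise, equal spread in all groups and no tied values. Its behaviour under ties or unequal spread was not tested. Genes of lists were represented by the brightest probe set with a single symbol, and up to 4 called genes per list and comparison with the largest change were named. Genes listed but not measured were not analysed here. Of 9 pairings of same-numbered arrays, 4 deviated together weakly (r from 0.124 to 0.202), and r over all 9 went down to -0.258. Differently numbered arrays reached 0.337, so numbers were not taken as pairs. Alternatives covered scaling, filter, offset, trend, array weights, spread and each array left out.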

Additional observations from a re-analysis of the deposited data

Results flagged for a closer look

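Differences between the 2 exposure times, tested directly as 72 h against 6 h in limma over all probe sets, passed for the following members and list genes. Each value is a log2 difference, 72 h minus 6 h. The CYP1B1 probe sets 202435_s_at, 202436_s_at and 202437_s_at were higher at 72 h by 0.57, 0.52 and 0.63. Among the list genes CCNG2 was higher by 0.54, CLOCK by 0.40, KYAT3 by 0.39 and NQO1 by 0.32. The lower ones were HES1 (-0.82), AADAT (-0.73), KMO (-0.68), PDK1 (-0.67), PARP6 (-0.41), ZC3HAV1 (-0.39), HSP90AB1 (-0.26), LDHA (-0.14) and HIF1A (-0.14). Adjusted p ranged up to 0.0376, that of HIF1A, which encodes the oxygen-regulated partner of ARNT and did not pass in either comparison with DMSO. HIF1A passed under 7 of 18 alternatives (adjusted p up to 0.504 in limma), KMO under 9, with differences from -0.89 to -0.27, and CCNG2 under 11. LDHA and PARP6 passed under 15, AADAT, PDK1 and HSP90AB1 under 16 and KYAT3 under 17, and the remaining ones under every alternative run. In the reported fit TIPARP, AHR, AHRR, CYP1A1 and the ARNT probe sets did not pass between the times. For these flags, groups of 3 arrays were not screened for single deviating arrays, though each array was left out in turn. The mean Spearman correlation of an array with the others of its group was 0.958 to 0.971 at 72 h. It was 0.985 to 0.987 at 6 h and 0.989 to 0.99 in DMSO.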

How the results depend on the processing

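The 3 bright CYP1B1 probe sets passed at 72 h against DMSO and against 6 h under every alternative run, with changes against DMSO from 0.45 to 0.67. The member count at 72 h was 3 to 4 with 1 array left out and at 6 h 0; at 6 h it was 1 with 1 probe set per gene, quantile normalization or array weights. Between the times it was 1 with 1 probe set per gene, which keeps 1 CYP1B1 probe set, and 3 with 1 array left out; with quantile normalization or loess it was 4, AHR included. Over all probe sets the 6 h count of 40 became 13 with arrays centred on their medians, 6 without a trend and 104 with array weights, and 19 to 31 with 1 array left out. The 72 h count of 4067 became 2091 centred, 2303 without a trend and 2340 without 72 h arrays 2 and 3, a setting chosen after the data had been seen. With 1 array left out it ran from 2124 (without DMSO replicate 3) to 6672 (without 72 h replicate 1), with 2278 and 2560 without DMSO replicates 1 and 2. The count between the times, 3528, became 1625 centred, 1764 without a trend, 1757 with only the groups compared and 1590 without 72 h arrays 2 and 3. With 1 array left out it ran from 1816 (without 6 h replicate 2) to 6270 (without 72 h replicate 1), with 2295 and 2022 without 6 h replicates 1 and 3. The share of lower calls at 72 h was 72.3%, against 57% after quantile normalization, 55.8% after loess and 66.1% centred; between the times it was 75.1%, 57.5%, 56.9% and 74.6%, and at 6 h 7.5%, 18.3%, 13.2% and 0%. Scaling moved the median change of all probe sets by at most 0.04, and that of the bright ones, where 12 of the 15 member probe sets lie, by up to 0.09 at 72 h and between the times. CYP1B1 minus TIPARP was 0.23 to 0.32 at 6 h, 0.66 to 0.79 at 72 h and 0.39 to 0.53 between the times with 1 array left out. At 72 h it was 0.83 with 202435_s_at and -0.073 with 202434_s_at, which also gave -0.29 between the times. With the replicate number as a block, 28, 3344 and 2808 probe sets were called at 6 h, 72 h and between the times, with 0, 3 and 3 members; TIPARP at 72 h then had an adjusted p of 0.056 in limma. The causes were not tested.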
